A study of Mus musculus with 16 samples.

Results

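Cyclins and cyclin-dependent kinases (CDKs), with the proteins that inhibit them, were followed in the RNA and the N6-methyladenosine (m6A) of mouse bone after ovariectomy or a sham operation. Genes were taken by symbol: numbered Cdk, Cdkl and Cdkn genes and lettered cyclin genes. Of 60 matching symbols among 25239 in the RNA table, 59 had a mean count above 0 and are the members. The same names carried 50 of the 13083 m6A peaks. The rule also took Cdkn2aip and Cdkn2aipnl, which are no CDK inhibitors in spite of their names.

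The study used bone of wild type mice in 2 arms, titled NC and OVX, taken as sham and ovariectomy. Each arm had 4 input libraries, RNA before pull-down, and 4 immunoprecipitated (IP) libraries, RNA pulled down for m6A. For the 4 IP libraries titled NC the treatment label reads ovariectomy, and the title was used. The sources used here do not give strain, age or the time after surgery. They also do not say that libraries are from different animals. If they are not, p-values measure only the spread between preparations. Both tables hold the authors' comparisons, so neither the value in each library nor its depth can be shown. Neither names the numerator of its fold changes, so signs are given as deposited. A positive sign therefore means higher RNA, or higher m6A enrichment, in the same unnamed arm throughout a table, and signs are not compared between the tables.

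Cyclins are regulatory subunits that switch on CDKs and, in dividing cells, appear and are destroyed in a fixed order. D cyclins with Cdk4 and Cdk6 act early in G1 and phosphorylate the retinoblastoma protein, E and A cyclins with Cdk2 drive entry into and passage through DNA synthesis, and B cyclins with Cdk1 drive mitosis. INK4 proteins block Cdk4 and Cdk6, and Cip/Kip proteins act on several cyclin-CDK complexes. Another branch of the family, with cyclins C, H, K, L and T, acts on RNA polymerase II and on splicing. Where bone is taken with its marrow, precursors of blood cells are among its dividing cells.

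Promoter sequence is shown for Ccnf, Cdk1, Ccnb1 and Ccnb2, genes of late cell cycle. Their deposited fold changes were positive, but only 1 of them, that of Ccnf, passed the threshold. Whether promoter letters go with the sign of a fold change was not tested. The windows hold the 150 bases upstream of the start, read 5′ to 3′ on the gene's strand, from RefSeq on GRCm38.p6. Capitals mark the cell cycle homology letters TTTGAA, the box CCAAT, and the E2F-type letters TTGGCGC or TTCCCGC, on either strand. In Ccnb1 an E2F-type match overlaps a CCAAT box.
Ccnf chr17:24251410-24251559, minus strand: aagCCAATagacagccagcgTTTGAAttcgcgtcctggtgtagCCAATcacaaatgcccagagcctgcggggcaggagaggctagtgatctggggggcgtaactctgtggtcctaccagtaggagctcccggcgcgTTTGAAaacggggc
Cdk1 chr10:69352913-69353062, minus strand: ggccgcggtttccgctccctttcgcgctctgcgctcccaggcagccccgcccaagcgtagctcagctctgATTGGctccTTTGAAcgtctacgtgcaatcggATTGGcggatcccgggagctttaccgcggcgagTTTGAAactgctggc
Ccnb1 chr13:100786487-100786636, minus strand: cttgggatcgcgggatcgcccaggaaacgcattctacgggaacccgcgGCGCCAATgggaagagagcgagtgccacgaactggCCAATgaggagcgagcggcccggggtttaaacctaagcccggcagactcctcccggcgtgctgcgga
Ccnb2 chr9:70421555-70421704, minus strand: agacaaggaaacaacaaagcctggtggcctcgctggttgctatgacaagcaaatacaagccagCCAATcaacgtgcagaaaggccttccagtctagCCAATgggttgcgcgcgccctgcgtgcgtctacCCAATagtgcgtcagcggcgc

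The upstream bases of Ccnf and Cdk1 each held TTTGAA at 2 places and CCAAT at 2. Ccnb1 held CCAAT at 2 places and 1 E2F-type match, and Ccnb2 held CCAAT at 3. Ccnb2 also had TTTGAA outside the printed bases, beginning at positions -167 and 4 from the start. Outside its printed bases Cdk1 had CCAAT beginning at -208 and an E2F-type match beginning at -178. RefSeq promoter windows of 250 bases before to 50 after a start were at hand for 46 of the 59 members, 53 windows in all. CCAAT was in 25 of these 53 (47.2%), beside 37.4% of all 32851 windows. TTTGAA was in 7 (13.2%), beside 17.9% of all, and an E2F-type match in 7 (13.2%), beside 6.81%. Among the 12 windows at hand for D, E, A and B cyclins, cell cycle CDKs, Cdkn3 and Ccnf, TTTGAA was in 4, CCAAT in 7 and an E2F-type match in 3. The TTTGAA windows were those of Ccnb2, Cdk1, Ccnf and Cdkn3. Ccnf and Cdkn3 were put in this set by choice, so its shares are not set against those of all windows. CCAAT without TTTGAA was found for Ccng1, the 1 negative RNA call, and for Ccnd3 and Cdkn1b, both called positive. No window was at hand for Ccna2 or Ccne2, so no A cyclin was covered. A match describes letters and is no measured binding site.

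The authors' deposited table gave 8 members an adjusted p under 0.05, the threshold used here for a call. Positive calls were Ccnd3, Ccne2, Ccna2, Ccnf, Ccng2, Cdk6 and Cdkn1b, and the negative call was Ccng1. An adjusted p was deposited for 56 members, so 7 of 56 (12.5%) were called positive, where 6.07% of all 15396 tested genes were, and 1 of 56 (1.79%) negative, where 6.11% of all were. Of the 56, 38 (67.9%) had a positive sign, beside 46.7% of all tested genes. At an adjusted p under 0.01 the authors' deposited table held 2 positive members (3.17% of all genes), 1 negative (2.56%) and so 3 of either sign (5.73%). At 0.1 it held 13 positive (8.66% of all genes), 4 negative (9.05%) and 17 of either sign (17.7%), beside 12.2% of all genes of either sign at 0.05. The median log2 fold change was 0.10 over the 56 members (median standard error 0.13) and -0.02 over all tested genes. Members had higher counts than most genes, with a median of 2405 normalized counts against 853 over all tested genes in the authors' deposited table. Among genes with a mean of at least 1000, a limit chosen after seeing the data, 30 of 36 members (83.3%) were positive, beside 53.5% of 7184 genes. All 8 calls lay in that range, where 9.01% of genes were called positive and 6.49% negative. In such bulk samples, fewer cells of a type and less RNA per cell cannot be told apart.

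**Figure D1:**
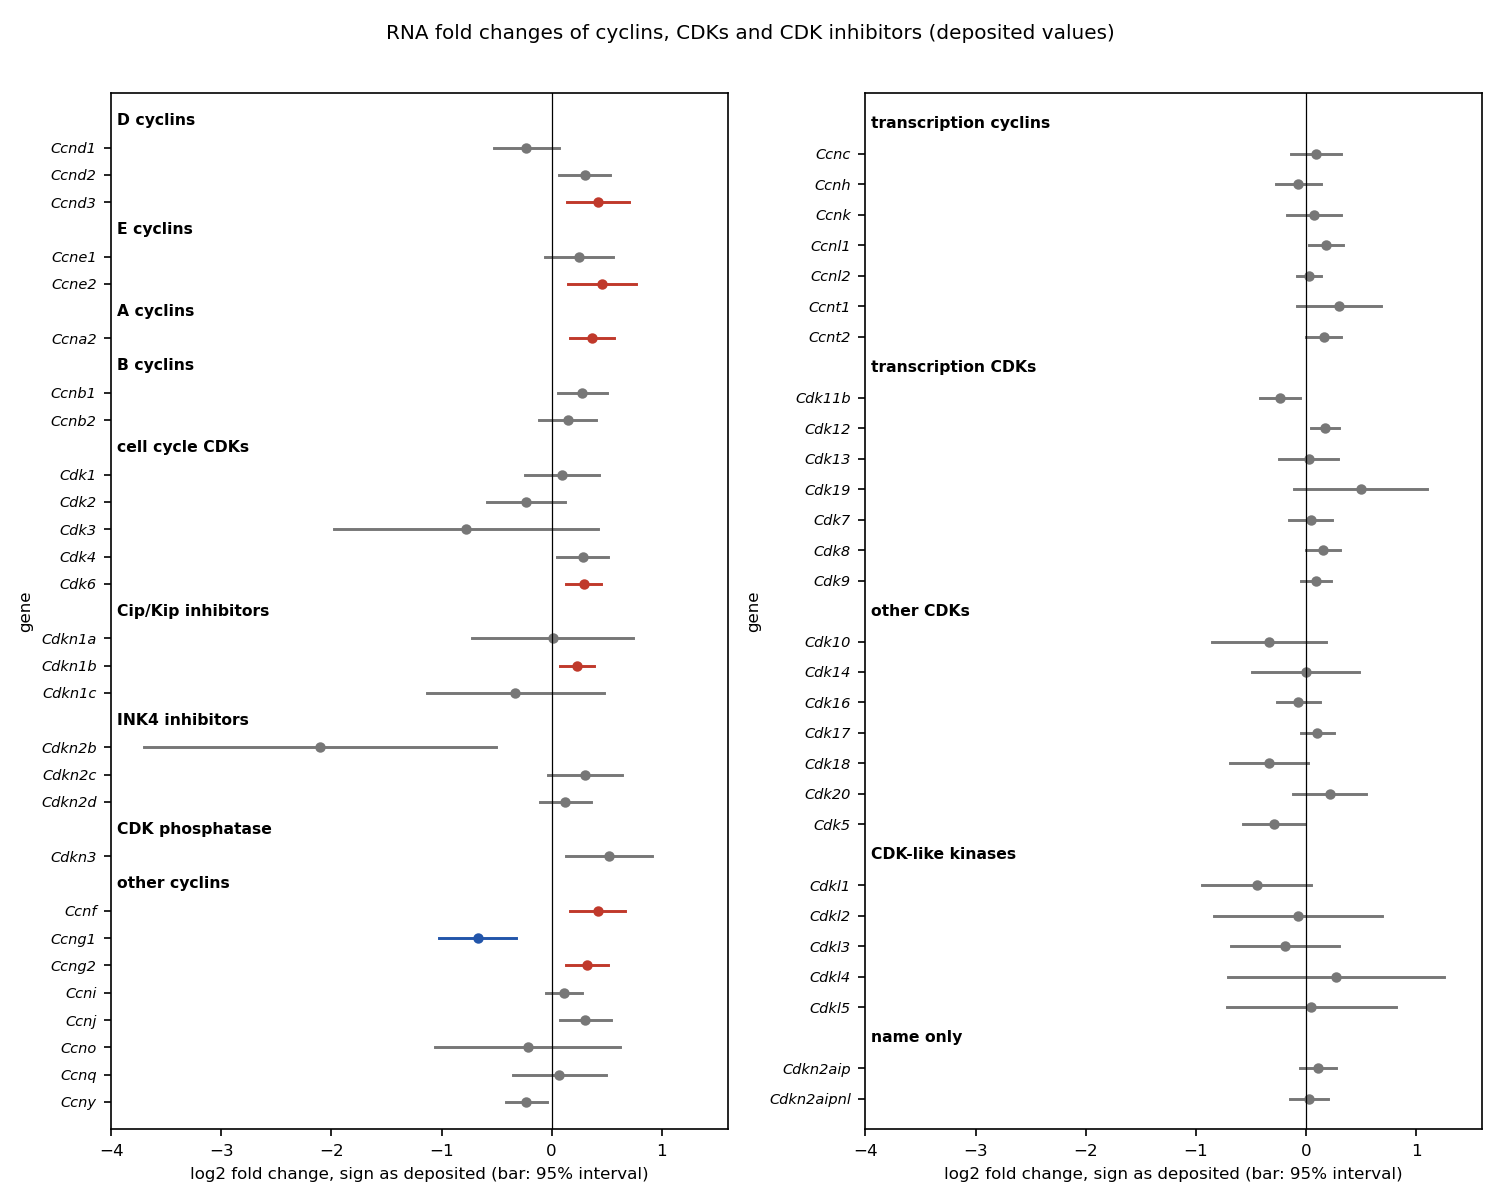
Log2 fold change of each tested member by role, with its sign as deposited and a bar for the 95% interval from the deposited standard error. Red marks the 7 positive and blue the 1 negative member with an adjusted p under 0.05, and grey the others. Of the 8 D, E, A and B cyclins 7 lie right of 0, where 46.7% of all tested genes would. Ccng1, at -0.67, is the 1 called gene left of 0, while Cdk3 and Cdkn2b, not called, lie further left.

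Of the 3 D cyclins 1 passed, where 6.07% of all tested genes were called positive. Ccnd3, the D cyclin that early B and T cell precursors rely on, had a log2 fold change of 0.42 ± 0.14 (SE) in the authors' deposited table at a mean of 8796 normalized counts (Wald test, Benjamini-Hochberg adjusted p = 0.0335). That is a ratio of 1.34 with a 95% interval from 1.10 to 1.63. Ccnd2 stood at 0.30 ± 0.12 in the authors' deposited table and missed the threshold (adjusted p = 0.0713), with an interval from 0.07 to 0.53. Ccnd1, the D cyclin common in stromal and epithelial cells, stood at -0.23 ± 0.15 (adjusted p = 0.335) in the authors' deposited table. Whether Ccnd1 differed from the other D cyclins was not tested.

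Kinase partners of the D cyclins had nearly equal fold changes, and 1 passed, where 6.07% of all tested genes were called positive. Cdk6 stood at 0.29 ± 0.08 in the authors' deposited table (adjusted p = 0.0069), a ratio of 1.22 with a 95% interval from 1.09 to 1.36. Cdk4 had 0.28 ± 0.12 and did not pass (adjusted p = 0.0964) in the authors' deposited table. The 2 kinases thus lay on different sides of the threshold with a like fold change and a larger standard error for Cdk4.

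E and A cyclins, which act at DNA synthesis, gave 2 calls, where 6.07% of all tested genes were called positive. Ccne2 had 0.46 ± 0.16 in the authors' deposited table (adjusted p = 0.0358), a ratio of 1.37 (95% interval 1.11 to 1.70). Its paralog Ccne1 stood at 0.25 ± 0.16 in the authors' deposited table and did not pass (adjusted p = 0.311). Ccna2, the A cyclin of dividing body cells, had 0.37 ± 0.10 at a mean of 8268 normalized counts in the authors' deposited table (adjusted p = 0.0058), a ratio of 1.29 (95% interval 1.12 to 1.48). Ccna1, the A cyclin of male germ cells, was listed at a mean of 0 and is no member. Their partner Cdk2 had the opposite sign, -0.23 ± 0.18, and did not pass (adjusted p = 0.449) in the authors' deposited table. Its relative Cdk3 was at 13.4 normalized counts and -0.77 ± 0.61 in the authors' deposited table.

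Mitotic members had positive values that mostly missed the threshold. In the authors' deposited table Ccnb1 was at 0.28 ± 0.11 (adjusted p = 0.0896) and Ccnb2 at 0.15 ± 0.13 (adjusted p = 0.518). Cdk1, their kinase, had 0.09 ± 0.17 at a mean of 7033 normalized counts in the authors' deposited table (adjusted p = 0.777). The interval of Cdk1, from -0.25 to 0.43, includes the value of Ccna2. Ccnf, the F-box cyclin that marks proteins for destruction late in the cycle, passed with 0.42 ± 0.13 in the authors' deposited table (adjusted p = 0.0147), a ratio of 1.34. Cdkn3, a phosphatase that acts on CDKs, had the highest positive value of the tested members, 0.52 ± 0.20, and did not pass (adjusted p = 0.0656) in the authors' deposited table. Ccnb3, chiefly a germ cell gene, had 5.53 ± 2.85 in the authors' deposited table at a mean of only 4.28 normalized counts and no adjusted p, so its fitted value stands for no fold. In all, 7 of the 8 tested D, E, A and B cyclins were positive in the authors' deposited table, 3 of them called, with a median of 0.29. Of all tested genes 46.7% had a positive sign and 6.07% were called positive. Among genes with a mean of at least 1000 these shares were 53.5% and 9.01%.

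**Figure D2:**
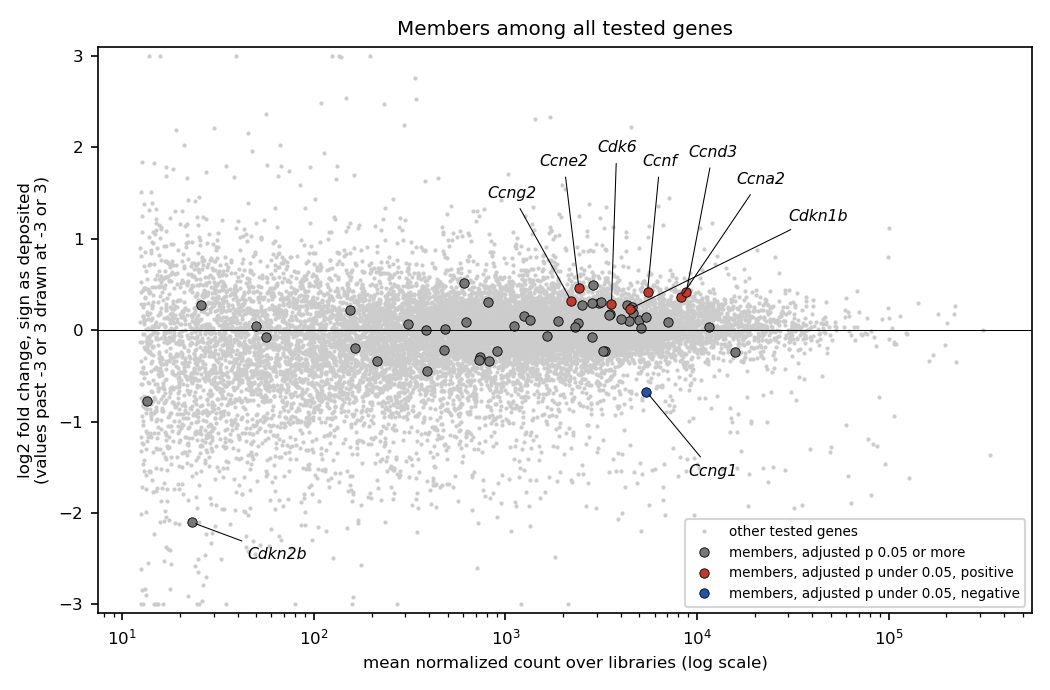
Log2 fold change, sign as deposited, against the mean normalized count over libraries on a log axis for all tested genes, with cyclin, CDK and inhibitor genes drawn as larger points. The 8 called members sit between 2206 and 8796 normalized counts, and Cdkn2b, not called, sits at -2.10 near 23.1 counts.

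Inhibitors gave 1 call among 6 tested (16.7%), where 6.07% of all tested genes were called positive. Cdkn1b (p27), which holds resting cells out of the cycle, had 0.23 ± 0.08 in the authors' deposited table (adjusted p = 0.0368), the smallest of the called fold changes, at a ratio of 1.17. The authors' deposited table put Cdkn1a (p21), the main p53-induced inhibitor, at 0.01 ± 0.37 and Cdkn1c (p57) at -0.33 ± 0.41. The 95% interval of Cdkn1a was wide, from -0.72 to 0.74 on the log2 scale. Of the INK4 genes, the authors' deposited table had Cdkn2c (p18) at 0.31 ± 0.17 and Cdkn2d (p19) at 0.12 ± 0.12, neither past the threshold. Cdkn2b (p15) had the most negative value of the tested members, -2.10 ± 0.81, at a mean of 23.1 normalized counts, and missed the threshold (adjusted p = 0.0682) in the authors' deposited table. Its neighbour Cdkn2a, at 7.78 normalized counts, had no adjusted p in the authors' deposited table. Ccnd3, Cdk6 and Cdkn1b, a cyclin, a kinase and an inhibitor of the G1 step, are named together because each was called positive. Of the same step Ccnd1, Ccnd2, Cdk4 and the tested INK4 genes were not called, and Ccnd1 and Cdkn2b had a negative sign.

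The cyclin G pair was called with opposite signs. Ccng1, a p53 target, had -0.67 ± 0.18 at a mean of 5439 normalized counts in the authors' deposited table (adjusted p = 0.0036). That ratio of 0.627 (95% interval 0.493 to 0.797) was the largest called change in absolute log2 value, and no other member was called negative. Ccng2, an atypical cyclin linked to arrest of the cycle, had 0.32 ± 0.10 in the authors' deposited table (adjusted p = 0.0138), a ratio of 1.25 (95% interval 1.10 to 1.42). The intervals of the pair do not overlap, and the difference between them was not tested. Trp53, the gene of p53 itself, had 0.33 ± 0.11 (adjusted p = 0.0289), and the p53 target Mdm2 had 0.09 ± 0.12 (adjusted p = 0.681) in the authors' deposited table. Of 8 atypical cyclins tested, a set that includes Ccnf, 5 were positive (62.5%) and 3 negative in the authors' deposited table. Of all tested genes 46.7% were positive. The 2 negative ones besides Ccng1 were Ccny (-0.23 ± 0.10) and Ccno (-0.22 ± 0.43), and neither passed in the authors' deposited table.

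The transcription branch held no RNA call. Its 14 tested members, 7 cyclins and 7 kinases, had a median log2 fold change of 0.09, and 12 were positive in the authors' deposited table. At an unadjusted Wald p under 0.05 there were 5 of 14 (35.7%), beside 25.7% of all tested genes. Cdk12, which phosphorylates the tail of RNA polymerase II, came nearest with 0.18 ± 0.07 (adjusted p = 0.0594) in the authors' deposited table. Its close relative Cdk13 stood at 0.02 ± 0.14 in the authors' deposited table. Ccnl1, a cyclin linked to splicing, had 0.18 ± 0.08 (adjusted p = 0.102) and its kinase Cdk11b -0.23 ± 0.09 (adjusted p = 0.0763) in the authors' deposited table, so that the partners had opposite signs. Cdk9, the kinase that releases paused polymerase, had 0.10 ± 0.07, and its cyclins Ccnt1 and Ccnt2 had 0.30 ± 0.19 and 0.16 ± 0.08 in the authors' deposited table. For the kinase that activates other CDKs, the authors' deposited table gave Cdk7 0.04 ± 0.10 and Ccnh -0.07 ± 0.10. The Mediator kinases Cdk8 and Cdk19, with Ccnc, had 0.16 ± 0.08, 0.50 ± 0.31 and 0.09 ± 0.11 in the authors' deposited table, none past the threshold.

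Of the remaining kinases none was called, where 12.2% of all tested genes were called with either sign. The 7 tested other CDKs had 5 negative signs and a median of -0.07, with Cdk5, a kinase best known in neurons, at -0.29 ± 0.14 (adjusted p = 0.176) in the authors' deposited table. The 5 CDK-like kinases, at means of 25.7 to 388 normalized counts, had 3 negative signs and standard errors with a median of 0.39. Cdkl1 had the smallest p of these, at -0.45 ± 0.25 (adjusted p = 0.251) in the authors' deposited table. Cdk15 was at 4.45 normalized counts and had no adjusted p in the authors' deposited table. The authors' deposited table put Cdkn2aip at 0.11 ± 0.08 and Cdkn2aipnl at 0.03 ± 0.09.

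Partners and regulators outside the symbol rule were read from a list by role, with 62 of 64 genes tested. Skp1 matched no symbol and Cdk5r2 had no adjusted p. The authors' deposited table called 8 positive (12.9%, beside 6.07% of all tested genes) and 3 negative (4.84%, beside 6.11%). A positive sign was held by 47 of the 62 (75.8%), beside 46.7% of all tested genes. The adjusted p of these calls ran from 6.5e-05 (Aff1) to 0.0456 (Hexim1) in the authors' deposited table. Foxm1, the transcription factor of mitotic genes, had 0.45 ± 0.10 and Cdc25b, a phosphatase that activates CDKs, had 0.52 ± 0.12 in the authors' deposited table. Cks1b, a small CDK-binding subunit, stood at 0.47 ± 0.13 and Fzr1, which directs the anaphase-promoting complex to cyclins, at 0.48 ± 0.10 in the authors' deposited table. Fbxo31, a ubiquitin ligase subunit for cyclin D1, had -0.80 ± 0.18 and E2f6, a repressive E2F, had -0.50 ± 0.13 in the authors' deposited table. Mnat1, the assembly factor of Cdk7 and cyclin H, was called with -0.34 ± 0.10 in the authors' deposited table, whereas neither of its partners was. Around Cdk9, the inhibitor Hexim1 (0.30 ± 0.11), Mepce of its 7SK particle (0.34 ± 0.10) and the elongation scaffold Aff1 (0.31 ± 0.06) were positive calls in the authors' deposited table. The 13 retinoblastoma and E2F genes gave no positive call, where 6.07% of all tested genes did, so that few or none could be looked for. Of the 13, 10 had a positive sign (76.9%, beside 46.7% of all tested genes), at a median of 0.14. Rb1 stood at 0.17 ± 0.14 and E2f1 at 0.03 ± 0.20 in the authors' deposited table. For roles with no call, the smallest p belonged to Cables2 (0.16 ± 0.10) and Cdk5rap2 (0.15 ± 0.08) in the authors' deposited table.

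Markers of cell types were called in the same comparison. Over all tested genes 6.07% were called positive, 6.11% were called negative and 46.7% had a positive sign. All 9 markers of B cell precursors were called positive in the authors' deposited table, at log2 fold changes from 0.70 to 3.07, and 4 of 8 erythroid markers were, with a list median of 0.41. All 9 genes of dividing cells were positive in the authors' deposited table and 3 were called, at a median of 0.34. In the authors' deposited table none of 8 neutrophil markers was called, at a median of -0.23, and all 7 skeletal muscle markers were negative and 2 called, at a median of -1.37. Bone markers were all detected, at means of 1093 to 99868 normalized counts in the authors' deposited table, 3 called positive and 1 negative. None of these lists held a gene at 0, and their part in the cyclin and CDK values was not tested.

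The m6A peaks of these genes had a median strength near that of all peaks. Of the 56 tested members 30 (53.6%, exact 95% interval 39.7 to 67.0) carried at least 1 peak, beside 44.3% of all tested genes. The share depended on the mean normalized count. Below 100 it was 0 of 5 members beside 6.32% of all tested genes, and from 100 to 1000 it was 6 of 15 (40%) beside 35.0%. From 1000 to 5000 it was 18 of 27 (66.7%) beside 62.6%, and from 5000 it was 6 of 9 (66.7%) beside 73.8%. The 50 peaks had a median enrichment of IP over input of 1.84, against 1.82 over all peaks, and 14 of 50 (28%) reached 2, against 37.3%, in the authors' deposited table. They covered a median of 150 exonic bases, and 20 of 50 (40%) spanned more than 1 exon block, against 40.1% of all peaks. Transcription cyclins and CDKs held 25 of the 50 peaks, in 11 genes. Peak positions are those of the authors' deposited table, and all 50 fell within their gene on GRCm38.p6.

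Peaks were shared unevenly within the cell cycle branch. Ccnd2, Ccne2, Ccna2 and Cdk1 had 1 peak each and Cdk6 had 2, while Ccnd1, Ccnd3, Ccne1, Ccnb1, Ccnb2, Cdk2 and Cdk4 had none in the authors' deposited table. The enrichments were 2.12 for Ccnd2, 1.99 for Ccne2, 1.77 for Cdk1 and 1.26 for Ccna2, the lowest of the 50, in the authors' deposited table. The Ccne2 peak (chromosome 4, 11191763 to 11193932, plus strand) ran over 5 exon blocks and 248 exonic bases. Of the 8 genes with an RNA call, 4 had a peak (Ccne2, Ccna2, Cdk6 and Ccng1), beside 30 of the 56 tested members. These 8 had means of 2206 to 8796 normalized counts. Of all tested genes, 62.6% had a peak at means from 1000 to 5000 and 73.8% from 5000. The Ccng1 peak (chromosome 11, 40750594 to 40750793, minus strand) was enriched 1.75-fold and differed by 0.37 on the log2 scale, as the authors' deposited table gives it (log10 p = -0.387).

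**Figure D3:**
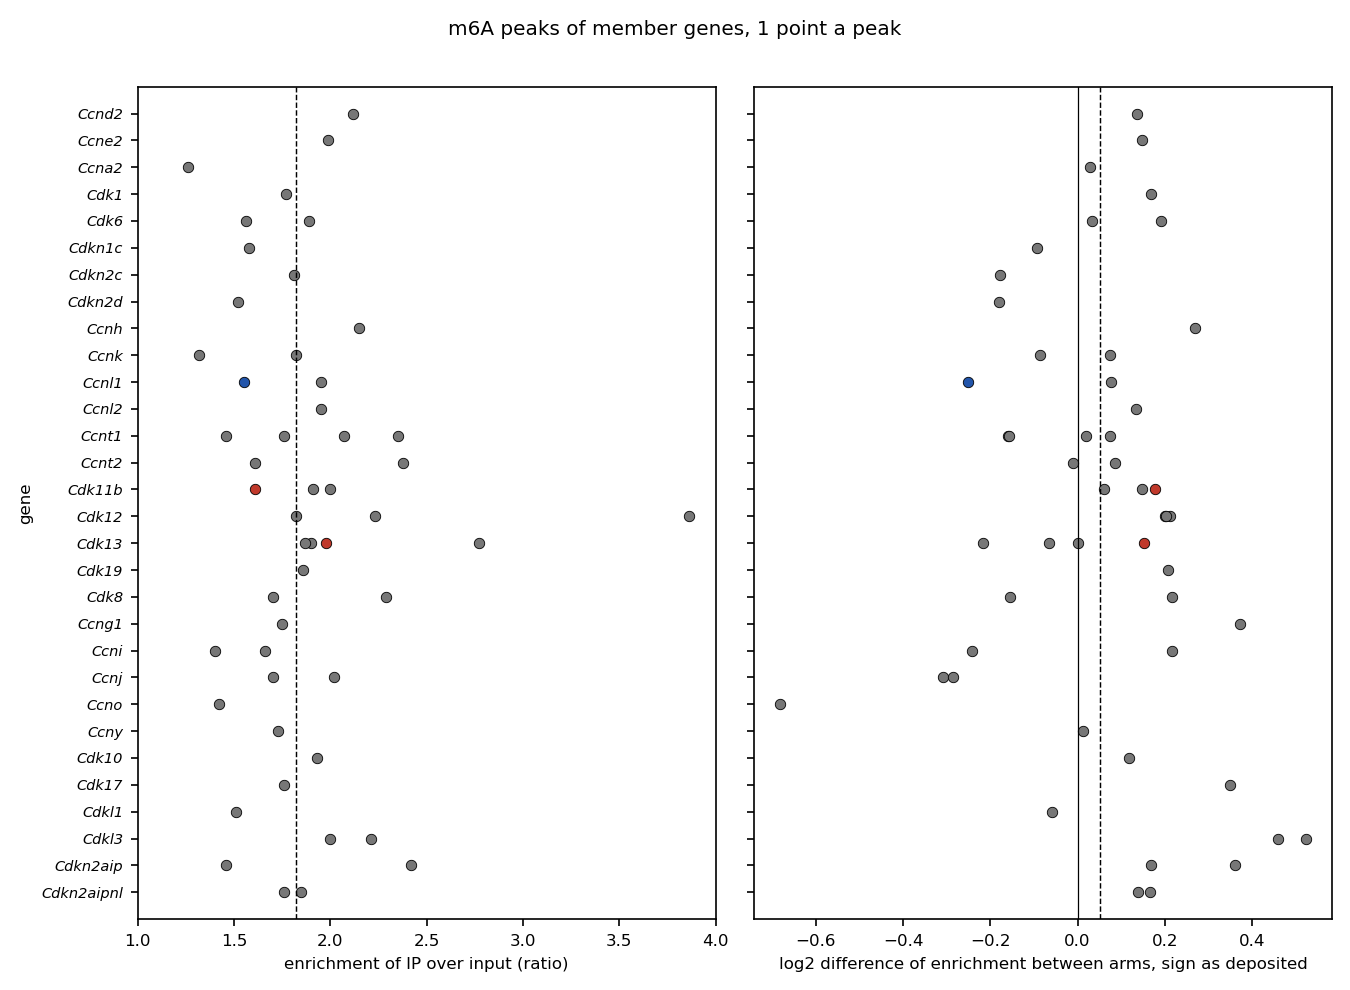
Enrichment of IP over input (left) and log2 difference of enrichment between the arms, sign as deposited (right), with 1 point for each of the 50 peaks in 30 genes. Dashed lines give the medians of all peaks (1.82 and 0.05), and red and blue mark the 2 positive and 1 negative peaks with a difference p under 0.05. One Cdk12 peak stands alone at 3.86, and the 3 coloured peaks lie within the range of the others on both axes.

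The 5 highest enrichments lay in transcription genes and in Cdkn2aip. Transcription genes held 25 of the 50 peaks, and 36% of these reached 2, beside 37.3% of all peaks. Cdk12 held 3 peaks, and the strongest (chromosome 11, 98210399 to 98210846, plus strand) had 3.86, above 99.4% of all peaks by rank, in the authors' deposited table. Next came a Cdk13 peak (chromosome 13, 17772323 to 17772573, minus strand) with 2.77 in the authors' deposited table. The following values were 2.42 in Cdkn2aip, 2.38 in Ccnt2 and 2.35 in Ccnt1 in the authors' deposited table. By rank these 3 lay above 84.4%, 82.8% and 81.8% of all peaks. Ccnt1 and Cdk13 carried 4 peaks each as deposited, the most of any member. Some neighbouring peaks of a gene shared the same p against input, such as the Ccnt1 peaks beginning at 98543674 and 98543873. Whether such peaks are separate was not tested. All 3 Cdk12 differences were close to each other, from 0.20 to 0.21, while those of Ccnt1 ranged from -0.16 to 0.07 in the authors' deposited table.

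Between the arms, 3 of 50 peaks (6%) had a difference p under 0.05, where 4.92% of all 13083 peaks did, a share near the background. By sign, 2 were positive (3.60% of all peaks) and 1 negative (1.32%). A Cdk11b peak (chromosome 4, 155642487 to 155647494, plus strand) differed by 0.18 on the log2 scale, as the authors' deposited table gives it (log10 p = -1.35). A Ccnl1 peak (chromosome 3, 65946594 to 65946791, minus strand) differed by -0.25 in the authors' deposited table, with a log10 p of -1.53. The other Ccnl1 peak differed by 0.08 and the other Cdk11b peaks by 0.06 and 0.15 in the authors' deposited table, none of them called. A Cdk13 peak (chromosome 13, 17764988 to 17765088, minus strand, 101 bases) differed by 0.15 with a log10 p of -8.11 and a log10 FDR of -4.29, the only member peak whose FDR fell below 0.05 by the authors' deposited table. Such an FDR was held by 0.0229% of all peaks (0.0153% positive and 0.00764% negative). At a difference p under 0.01 it was also the 1 member peak, where 1.44% of all peaks passed (1.05% positive and 0.390% negative). Of the 50 differences 34 (68%) were positive, beside 60.6% of all peaks.

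The Cdk13 peak combined a small p with a difference of common size. By p it ranked 2 among 13083 peaks, although 47.6% of all peaks had a larger absolute difference. The 735 other peaks within 0.01 of its absolute difference had a median log10 p of -0.263, and the lowest was -2.86, in the authors' deposited table. The 3 other Cdk13 peaks had differences of -0.22, -0.07 and 0.001 in the authors' deposited table, none called. The log2 fold change of Cdk13 RNA had a 95% interval from -0.24 to 0.29.

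**Figure D4:**
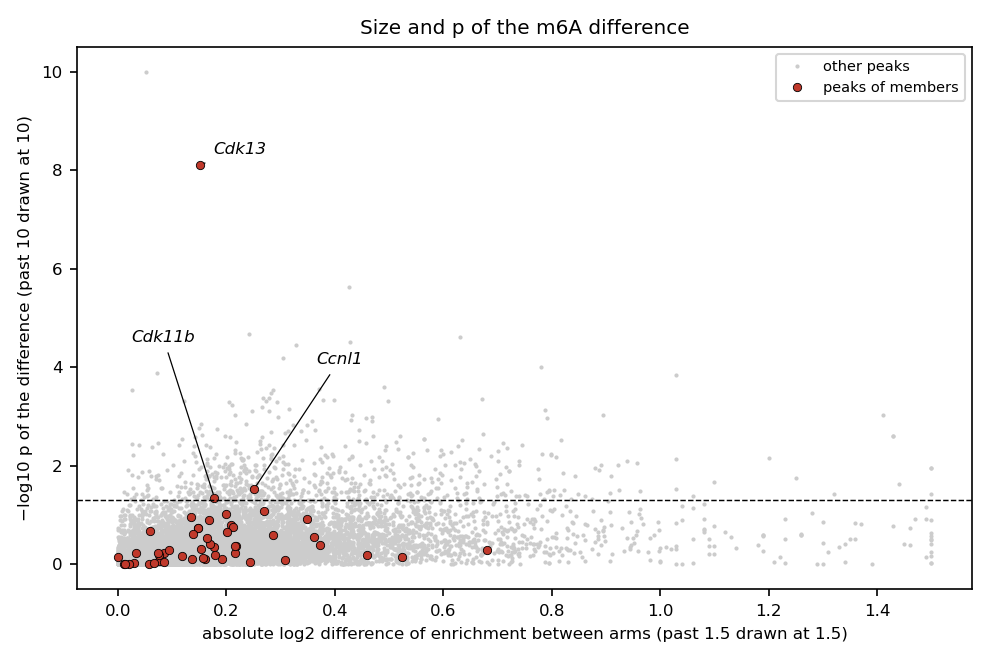
Absolute log2 difference of enrichment between the arms (horizontal) against the size of its deposited log10 p (vertical) for all 13083 peaks, with peaks of cyclin, CDK and inhibitor genes in red and a dashed line at the threshold of 0.05. One Cdk13 peak, at a difference of 0.15, stands far above the other member peaks.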

How the data were processed

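Input and IP libraries of mouse bone were made with a stranded kit with unique molecular identifiers, per the labels' protocols. HISAT2, StringTie, DESeq and a rat build, rn6, are named in the submitters' processing notes, without versions or roles. On mouse GRCm38.p6 (RefSeq) all 50 member peaks fell within their named gene, and all 59 member symbols were found. Peak starts were converted to count from 1.

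Per the file headers, the authors deposited for each gene the mean normalized count (a signal over libraries), the log2 fold change and its SE. The authors also deposited the Wald score of each gene, with raw and adjusted p-values. For each peak the authors deposited log10 p-values and FDRs against input, the enrichment ratio, and the log2 difference between arms with its log10 p and FDR (score). The peak caller, any pooling of replicates and the strand setting: not given in the sources used here. The tables give no library depths, so the SE is the only measure of precision, and gene lengths were not at hand, so levels were not compared between genes.

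No model was refitted. The Benjamini-Hochberg values recomputed over the 15396 genes with an adjusted p equalled those deposited, and the lowest mean among these genes was 12.4. Intervals are normal 95% intervals from the SE, and exact binomial intervals cover counting error only. Scripts were tested on simulated data and used Python 3.11.15, numpy 2.4.6, pandas 2.3.3, scipy 1.17.1 and matplotlib 3.10.9.

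The members and lists were chosen with earlier results of these data known. Named genes were all called members, all D, E, A and B cyclins, Cdk1, Cdk2, Cdk4, Cdk6 and inhibitors, the smallest p of each other role, called peaks, the 5 highest enrichments, and called pathway genes. Other genes named were chosen after their values were seen. Alternatives were other thresholds, other sets for the adjustment, count and enrichment filters and the membership of Cdkn2aip and Cdkn2aipnl. The planned motif search in peaks was not run, as no genome was used here.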

Additional observations from a re-analysis of the deposited data

How the results depend on the processing

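Of 27 alternatives tried, 15 left the count within 1.5 times or the value within its spread. The spread was 0.13 for the median log2 fold change, more than that median itself, and 0.42 for the median enrichment. Alternatives for these medians could therefore hardly fall outside it. The threshold set the counts: at an adjusted p under 0.01 there were 2 positive members (Ccna2 and Cdk6) and still 1 negative (Ccng1), and at 0.1 there were 13 positive and 4 negative. Pathway genes gave 5 positive and 2 negative calls at 0.01, where 3.17% of all tested genes were called positive and 2.56% negative. At 0.1 they gave 13 positive and 5 negative calls, beside 8.66% and 9.05% of all tested genes. Of the member peaks, 1 positive and 0 negative were counted at a difference p under 0.01 and at an FDR under 0.05, and 0 of either sign among peaks enriched at least 2. There were 7 positive and 1 negative member calls when the deposited p-values were adjusted over every gene with a p, and over genes with a mean of at least 50. A mean of at least 1000 (added after seeing the data) and leaving out Cdkn2aip and Cdkn2aipnl also gave 7 and 1, but could not change them, since they removed no called gene and kept the deposited adjusted p. The median log2 fold change of members was 0.10 as reported, at a mean of at least 50 and without Cdkn2aip and Cdkn2aipnl, the mean weighted by the inverse squared SE was 0.11, and the median enrichment between 1.84 and 1.91. The share of peaks holding GGAC was not run, for want of a genome. No paired analysis was possible because the tables hold no value for a single library, and no library could be left out for the same reason. Low counts limit Cdkn2a, Cdkn2b, Ccnb3, Cdk3, Cdk15 and the CDK-like kinases.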

Other observations

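The symbol Ccn followed by a number belongs not to cyclins but to the CCN family, secreted proteins of the matrix around bone and connective tissue cells, which the symbol rule leaves out. All 6 were tested and all 6 were negative in the authors' deposited table, with a median log2 fold change of -0.50. Ccn3 was the 1 call, at -1.66 ± 0.48 (adjusted p = 0.0105) and a mean of 420 normalized counts in the authors' deposited table, where 6.11% of all tested genes were called negative. Ccn2, the connective tissue growth factor, stood at -0.77 ± 0.41 (adjusted p = 0.217) at a mean of 7382 normalized counts in the authors' deposited table. Ccn1 had -0.26 ± 0.34 and Ccn5 had -0.58 ± 0.34 in the authors' deposited table, neither past the threshold. These genes were listed after earlier results of these data were known.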
